A study of Mus musculus with 8 samples.

Results

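The cytochrome P450 family 2 genes were described in mouse liver, as the 45 genes whose platform symbol begins with Cyp2 and a further letter, out of 19938 genes named on the array. Their probe sets were chosen by name alone, no member had more than 1 single-symbol probe set, and they fall into 14 subfamilies, the largest being Cyp2c with 13 members and Cyp2d with 10. The livers came from 8 adult male mice fasted for 16 h and refed for 3 h. Of these, 4 carried floxed Rictor alleles deleted with albumin-Cre (knockout) and 4 were labelled wild type (control). Rictor is a subunit of mTOR complex 2, which phosphorylates Akt downstream of insulin, and the comparison asks how liver transcripts depend on that complex after a meal. Albumin-Cre acts in hepatocytes, so Rictor in other liver cells is left in place; the sources used here give neither the strain nor whether controls carried floxed alleles or Cre.

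P450 enzymes are heme proteins of the endoplasmic reticulum that insert oxygen into drugs, steroids, fatty acids and other lipids, with electrons supplied by P450 reductase and cytochrome b5. Family 2 is the largest P450 family of the mouse, arose mainly by tandem duplication, and its members are among the most abundant messenger RNAs of hepatocytes. Several are induced by foreign chemicals through the nuclear receptors CAR and PXR, some follow the sex pattern of growth hormone release, and some are made mainly by hepatocytes near the central vein or near the portal tract.

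Each mouse has 1 array, read as log2 RMA values, and differences are knockout minus control with n = 4 in each group; a difference of 1 is a doubling. A probe set's level depends on its probes as well as on its transcript, so levels are not compared between genes. The median of an array was 6.90 to 7.03. Of the 45 members, 27 read above the array's median on all 8 arrays and 15 read below it on all 8, and the second set is close to what dim or absent transcripts give. The mean of the 7 hepatocyte markers examined (Alb, Apoa1, Ttr and others) on an array lay between 13.85 and 13.88 for knockout arrays. For control arrays it lay between 13.80 and 13.88. The Rictor probe set read 9.15, 9.51, 9.68 and 9.47 on knockout arrays 1 to 4 and 9.47, 9.28, 9.23 and 9.64 on control arrays 1 to 4 (difference 0.05, 95% interval -0.23 to 0.32). It therefore does not check the genotype labels, on which every direction below rests. The arrays numbered 1 stood apart from their groups. Along the main axis of variation over all genes (35.8% of the variance in a principal component analysis), knockout arrays 2 to 4 lay between 17.3 and 19.3 and knockout array 1 at -13.1, while control arrays 2 to 4 lay between -14.5 and -12.6 and control 1 at -1.24.

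Across the family most members had slightly lower means in knockout livers, and the Cyp2d subfamily was the 1 large group in which most were higher. No member passed correction over all genes. With limma and Benjamini-Hochberg adjustment 0 of 45 members passed, as did 0% of all 19938 genes, and the lowest adjusted p in the family was 0.143. Without adjustment 10 of the 45 members (22.2%) had a limma p under 0.05, against 10.5% of all genes. These were 3 members with higher means, all of them Cyp2d genes (3.84% of all genes), and 7 with lower means (6.61% of all genes). The share of 22.2% depended on the arrays and the processing. Its extremes over the alternatives were 6.67% (3 members) without knockout array 2 and 44.4% (20 members) without both arrays numbered 1. With arrays shifted to a common median it was 8.89% (4 members), as it was without knockout array 4, control 2 or control 4. The share of all genes was not counted in these fits, so these swings cannot be read as a result about the family. Over all genes, the share passing after limma and adjustment also rose, from 0% to 7.47% without both arrays numbered 1. The groups did not overlap in 2 members (4.44%), both higher in knockout livers, against 4.42% of all genes in either direction and 1.81% in that direction. The median difference was -0.05 over the family and -0.02 over all genes, and 32 members had lower means (71.1%, against 56.9% of all genes).

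The count of members that passed depended on the arrays numbered 1. With limma array weights, which gave knockout array 1 the lowest weight, 3 members passed (3.55% of all genes did), namely Cyp2d10, Cyp2r1 and Cyp2c55. Without knockout array 1 these and Cyp2d37-ps passed, 4 in all (4.4% of all genes). Without control array 1, 0 members passed (0.296% of all genes), with 12 at an unadjusted limma p under 0.05 (26.7% of members, against 12.2% of all genes). Without both arrays numbered 1, a setting picked once results were known, 9 members passed (7.47% of all genes). These fits give knockout array 1 less weight or leave out an array numbered 1, and those arrays stood apart from their groups. Passing in them is therefore not separate support, here or for the single genes below.

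**Figure D1:**
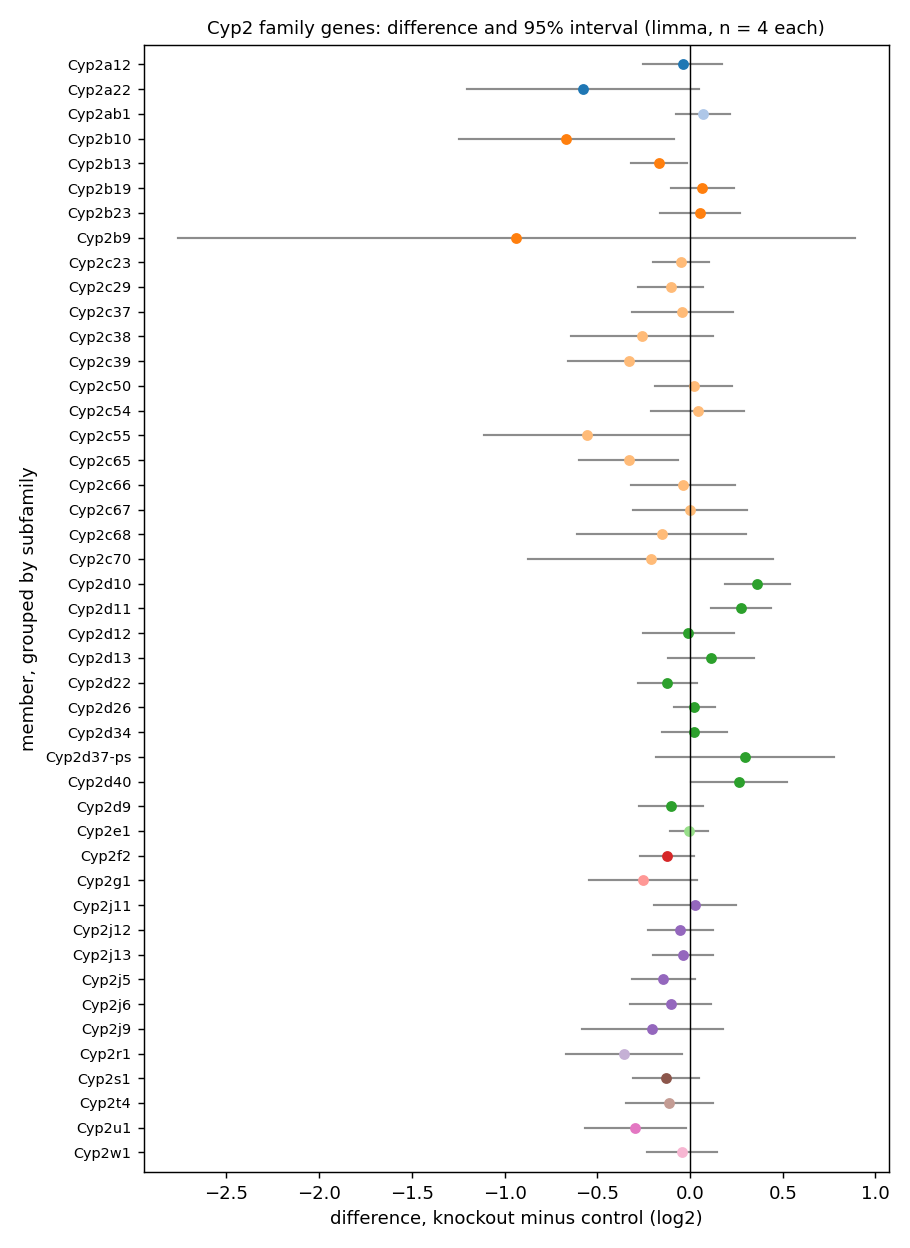
Difference of each of the 45 Cyp2 members, knockout minus control on the log2 scale, with its 95% interval from limma (n = 4 each), ordered and coloured by subfamily. Differences ran from -0.94 (Cyp2b9) to 0.36 (Cyp2d10), and most intervals cross 0.

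By subfamily, 7 of 10 Cyp2d members had higher means in knockout livers, with a median difference of 0.07. In contrast, 11 of 13 Cyp2c members had lower means (median -0.10), as did 5 of 6 Cyp2j members (median -0.08) and 3 of 5 Cyp2b members (median -0.17). Both measured Cyp2a members had lower means. Of the 9 subfamilies with a single measured member, Cyp2ab had a higher mean and Cyp2e, Cyp2f, Cyp2g, Cyp2r, Cyp2s, Cyp2t, Cyp2u and Cyp2w a lower one. These counts describe the subfamilies, and the difference between subfamilies was not tested.

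The Cyp2d genes are the mouse relatives of the human drug-metabolising CYP2D6. Cyp2d10 had the smallest p of the family. It read 12.05, 12.24, 12.21 and 12.23 on knockout arrays 1 to 4, against 11.94, 11.85, 11.78 and 11.70 on control arrays 1 to 4. Every knockout array lay above every control, with knockout 1 and control 1 nearest each other. The mean was 12.18 ± 0.09 in knockout livers and 11.82 ± 0.10 in controls (SD, n = 4 each). This is a 1.29-fold difference (log2 0.36, SE 0.08, 95% interval 0.19 to 0.54) that did not pass (limma adjusted p = 0.143; exact permutation p = 0.0286, the smallest that 4 against 4 arrays allow). It did pass under array weights (0.38; limma adjusted p = 0.0160) and without knockout array 1 (0.41; limma adjusted p = 0.0130).

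Cyp2d11 was the other member without overlap. Its probe set was dim, at 6.62, 6.41, 6.49 and 6.55 on the knockout arrays against 6.26, 6.31, 6.19 and 6.21 on the control arrays, below the array's median on all 8. The difference was 0.28 (SE 0.07; limma adjusted p = 0.219). Cyp2d11 lies beside Cyp2d10 in the genome and is close to it in sequence, and whether probes of one bind transcripts of the other was not tested.

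Cyp2d40 read 9.43, 9.15, 9.04 and 9.13 in knockout livers and 9.13, 8.99, 8.90 and 8.67 in controls (difference 0.27, SE 0.12; limma adjusted p = 0.443), with a small overlap. Here both arrays numbered 1 were the highest of their groups. The transcribed pseudogene Cyp2d37-ps read 10.62, 11.67, 11.67 and 11.95 on the knockout arrays, against 11.36, 11.23, 11.05 and 11.08 on the control arrays. Knockout array 1 thus gave the lowest value of all 8 and the other knockout arrays the 3 highest. The difference was 0.30 (SE 0.22; limma adjusted p = 0.677) with all arrays and 0.58 (SE 0.10; limma adjusted p = 0.0112) without knockout array 1. A second transcribed pseudogene, Cyp2d13, had the same order in part: knockout array 1 was the lowest of all at 11.75, the other knockout arrays read 12.09, 12.07 and 12.34, and the control arrays 11.92, 11.95, 11.91 and 12.01 (difference 0.11, SE 0.11; limma adjusted p = 0.762).

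Of the remaining Cyp2d members, Cyp2d9, Cyp2d12 and Cyp2d22 had lower means and Cyp2d26 and Cyp2d34 slightly higher ones, and none passed. Cyp2d9, a male-predominant testosterone hydroxylase of mouse liver, read 12.67, 12.35, 12.51 and 12.64 in knockout livers and 12.61, 12.70, 12.67 and 12.60 in controls (difference -0.10, SE 0.08; limma adjusted p = 0.688). The brightest Cyp2d probe set, Cyp2d26, differed by 0.02 with a 95% interval from -0.09 to 0.13. Its knockout values were 13.90, 13.85, 13.82 and 13.80 and its control values 13.80, 13.84, 13.83 and 13.80. Cyp2d12, Cyp2d22 and Cyp2d34 differed by -0.01, -0.12 and 0.02.

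**Figure D2:**
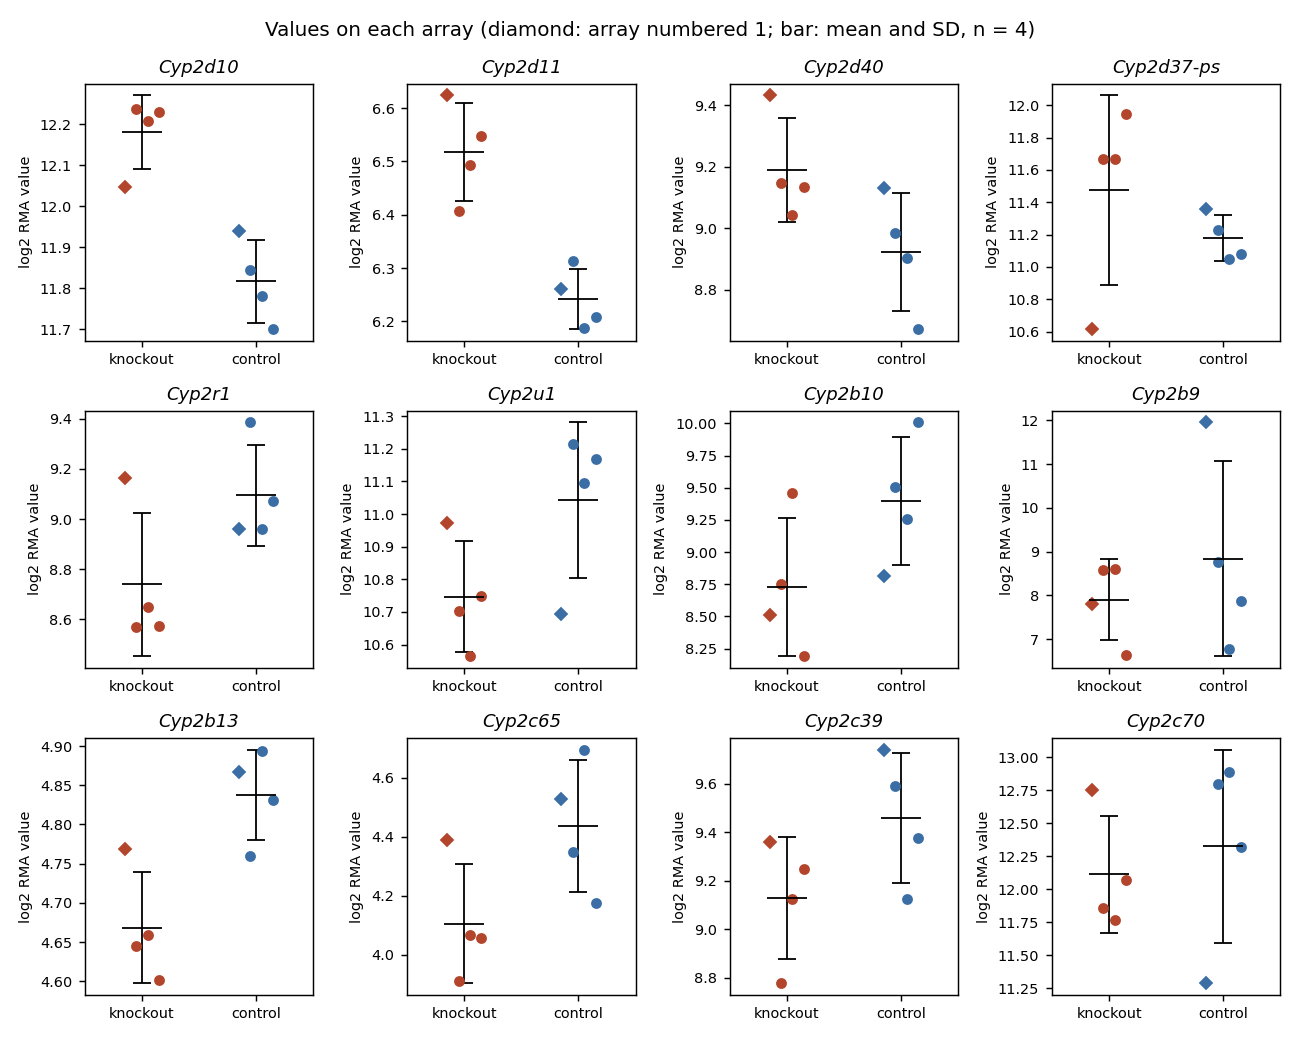
RMA value (log2) on each array for 12 members, knockout left and control right in each panel, with the mean and SD (n = 4) as bars and the arrays numbered 1 as diamonds. Cyp2d10 and Cyp2d11 are the 2 members whose groups do not overlap, and in Cyp2d37-ps, Cyp2r1 and Cyp2c70 a diamond lies toward the other group. Each panel has its own scale, which does not start at 0.

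Upstream sequences are shown for the 5 of 10 Cyp2d members in which both elements marked below were found. They include members with higher means in knockout livers and Cyp2d9, whose mean was lower. In the RefSeq promoter table (GRCm38.p6), 36 of the 45 members had a window, and the 250 bases before the annotated start were read. The stretches below run 5′ to 3′ on the gene's strand, and capitals mark the letters CAAAGNGCA, which form part of a direct repeat of the kind bound by HNF4 and other nuclear receptors, and TTTATAAGG, which holds a TATA box.
Cyp2d10 (chr15:82407211-82407262, minus strand): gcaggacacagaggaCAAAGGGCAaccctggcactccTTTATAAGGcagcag
Cyp2d11 (chr15:82394051-82394102, minus strand): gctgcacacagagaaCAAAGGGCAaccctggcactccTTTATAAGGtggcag
Cyp2d40 (chr15:82764199-82764250, minus strand): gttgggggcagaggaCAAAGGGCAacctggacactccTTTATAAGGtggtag
Cyp2d9 (chr15:82452312-82452363, plus strand): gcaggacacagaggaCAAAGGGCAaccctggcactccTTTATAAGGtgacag
Cyp2d26 (chr15:82794262-82794318, minus strand): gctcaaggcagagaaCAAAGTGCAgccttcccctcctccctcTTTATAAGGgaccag

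The 2 elements lay 13 bases apart in Cyp2d10, Cyp2d11, Cyp2d40 and Cyp2d9 and 18 bases apart in Cyp2d26. In the other Cyp2d members neither was found, and which of those had a window is not given here. Searched on both strands, CAAAGNGCA was present in 7 of the 36 member windows (the other 2 were Cyp2c37 and Cyp2c50) and in 1.13% of all 32851 windows. TTTATAAGG was present in 5 member windows and in 0.240% of all windows. The letters were chosen after the sequences were read, and a match is not evidence of binding. The 250 bases were aligned end to end, and identity is the share of alignment columns, gap columns included. By that measure Cyp2d10 was 82.8% identical to Cyp2d9, whose mean was 0.10 lower in knockout livers, and 76.7% to Cyp2d11. It was 54.4% identical to Cyp2d26 (46 mismatches and 88 gap columns) and 50.8% to Cyp2d40 (31 mismatches and 122 gap columns). The stretch shown lies at -128 to -77 from the annotated start in Cyp2d40 and at -68 to -17 in Cyp2d10.

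The Cyp2c subfamily holds the main arachidonic acid epoxygenases and several steroid and retinoid hydroxylases. Several of its bright members, given next, differed little between the groups. Other members above the array's median on all 8 arrays differed more, among them Cyp2c39 (-0.33), Cyp2c38 (-0.26) and Cyp2c70 (-0.21), and none passed. Cyp2c29, the brightest Cyp2c probe set, read 13.43, 13.20, 13.10 and 13.16 in knockout livers and 13.27, 13.46, 13.25 and 13.32 in controls (difference -0.10, SE 0.08; limma adjusted p = 0.688). Cyp2c23, also called Cyp2c44, an epoxygenase, read 13.22, 13.23, 13.05 and 13.02 against 13.14, 13.27, 13.17 and 13.14 in controls (difference -0.05, 95% interval -0.20 to 0.10). Cyp2c37, Cyp2c50 and Cyp2c54 differed by -0.04, 0.02 and 0.04, and Cyp2c67 by nothing measurable (95% interval -0.31 to 0.31).

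Larger differences were found in Cyp2c39, Cyp2c65, Cyp2c55 and Cyp2c38, none of which passed. Cyp2c39, a retinoic acid hydroxylase, read 9.36, 8.78, 9.13 and 9.25 on the knockout arrays and 9.74, 9.59, 9.13 and 9.38 on the control arrays (difference -0.33, SE 0.15; limma adjusted p = 0.452). Cyp2c65, an enzyme known mainly from the gut, had the smallest p of the lower members. It read 4.39, 3.91, 4.07 and 4.06 in knockout livers and 4.53, 4.35, 4.70 and 4.17 in controls (difference -0.33, SE 0.12; limma adjusted p = 0.351), far below the array's median throughout. Cyp2c38, another arachidonic acid epoxygenase, and Cyp2c68 differed by -0.26 and -0.15, and Cyp2c66, below the array's median on all 8 arrays, by -0.04.

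Cyp2c55, which oxidises arachidonic acid and is known mainly from the colon, is singled out after its values were seen, because it passed in several alternative fits. It read 6.33, 5.13, 5.22 and 4.95 on the knockout arrays and 5.53, 6.04, 6.34 and 5.94 on the control arrays. Knockout array 1 lay among the highest values and the other knockout arrays were the 3 lowest of the 8. The difference was -0.56 (SE 0.25; limma adjusted p = 0.453), and -0.86 without knockout array 1 (SE 0.15; limma adjusted p = 0.0112). All its values were below the array's median.

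Cyp2c70 makes muricholic acids, the bile acids that set mice apart from humans. It read 12.75, 11.86, 11.77 and 12.07 in knockout livers and 11.29, 12.80, 12.89 and 12.32 in controls (difference -0.21, SE 0.30; limma adjusted p = 0.856). Control 1 was the lowest of the 8 arrays and knockout 1 the third highest. Among the arrays numbered 2 to 4 every knockout value was below every control value, and without both arrays numbered 1 the difference was -0.77 (limma adjusted p = 0.00296). That fit was chosen after results of these data were known and leaves out arrays that lie toward the other group, so it is not a test.

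Within the groups, single arrays were high or low across many Cyp2c genes. Control 3 was the lowest control in 8 of the 13 members (Cyp2c29, Cyp2c37, Cyp2c38, Cyp2c39, Cyp2c54, Cyp2c66, Cyp2c67 and Cyp2c68) and the highest control in Cyp2c55, Cyp2c65 and Cyp2c70. Among the knockout arrays, array 1 was the highest in 9 members and array 3 the lowest in 7. The median deviation of the Cyp2c members from their 8-array means was 0.12, -0.08, -0.20 and -0.05 on knockout arrays 1 to 4, against 0.26, 0.23, -0.17 and -0.01 on control arrays 1 to 4. The ranges of the groups therefore overlap. Near-identical Cyp2c transcripts can share probe signal, and the array's annotation itself gives 1 probe set to Cyp2c40, Cyp2c67, Cyp2c68 and Cyp2c69 together; it was left out.

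**Figure D3:**
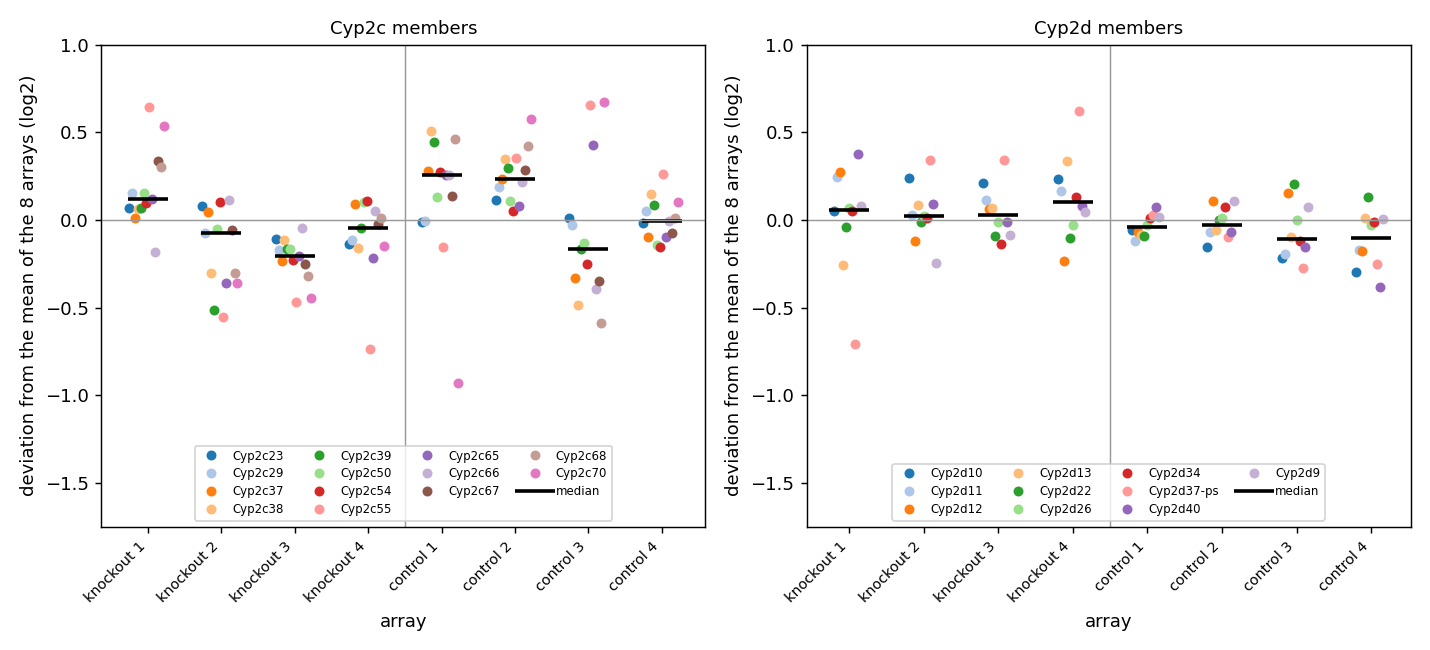
Deviation of each Cyp2c member (left panel) and each Cyp2d member (right panel) from its mean over the 8 arrays (log2), by array, knockout arrays first; the black bar is the median of the subfamily on that array. Cyp2c medians run from -0.20 to 0.12 on the knockout arrays and from -0.17 to 0.26 on the control arrays. On knockout arrays 1 to 4 the Cyp2d medians were 0.06, 0.02, 0.03 and 0.10, all above 0. On control arrays 1 to 4 they were -0.04, -0.03, -0.11 and -0.10, all below 0. Several lie close to 0, and how often other gene sets separate in this way was not counted.

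The Cyp2b genes include the classical barbiturate-inducible P450. Cyp2b10, the target gene by which activation of CAR is usually followed in mouse liver, read 8.51, 8.75, 9.46 and 8.19 in knockout livers, against 8.81, 9.51, 9.25 and 10.01 in controls. The mean was 8.73 ± 0.54 in knockout livers and 9.40 ± 0.50 in controls (SD, n = 4 each). That is a difference of -0.67 (SE 0.27, 95% interval -1.25 to -0.09) that did not pass (limma adjusted p = 0.388) and stayed short of the threshold in all 18 alternatives (limma adjusted p from 0.0829 to 0.693). Knockout array 3 lay inside the control range. The transcript of CAR itself (Nr1i3) differed by 0.01 (95% interval -0.30 to 0.31), and that of PXR (Nr1i2) by 0.08 (95% interval -0.16 to 0.32).

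Cyp2b9, which is female-predominant in adult mouse liver, was the most variable member. It read 7.80, 8.58, 8.59 and 6.63 on the knockout arrays and 11.95, 8.75, 6.78 and 7.87 on the control arrays, a span of 5.32 on the log2 scale. Its SD within groups, pooled over both, was 1.70, and 1 gene of all 19938 had a larger one; the median SD was 0.165 over the members and 0.134 over all genes. The difference of -0.94 (SE 0.84; limma adjusted p = 0.744) rests on control 1, without which it was 0.10. Of the 12 other female-pattern genes measured, such as Cyp17a1 and Fmo2, none passed (0 higher and 0 lower at an unadjusted limma p under 0.05). In these 12 genes control 1 was the highest control in 4 and the lowest in 2. Controls 2 to 4 were the highest in 2, 3 and 3 and the lowest in 3, 3 and 4. Of the 12 genes, 6 averaged below the median probe set. In the 10 other male-pattern genes measured, control 1 was the lowest control in 7 and the highest in 0, and control 2 was the highest in 8. Such counts were not made over all genes, and whether they go with the Cyp2b9 value of control 1 was not tested.

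Cyp2b13 is a neighbour of Cyp2b9 and also female-predominant. It was dim and nearly flat, at 4.77, 4.65, 4.66 and 4.60 in knockout livers and 4.87, 4.76, 4.89 and 4.83 in controls (difference -0.17, SE 0.07; limma adjusted p = 0.399). All its values were below the array's median, close to what dim or absent transcripts give, so its readings are not set against those of Cyp2b9. The upstream sequences of this pair are shown because they are nearly the same. Over the 250 bases before the RefSeq start (GRCm38.p6) they were 99.2% identical, with 2 positions that differ, in capitals.
Cyp2b9 (chr7:26173159-26173408, plus strand): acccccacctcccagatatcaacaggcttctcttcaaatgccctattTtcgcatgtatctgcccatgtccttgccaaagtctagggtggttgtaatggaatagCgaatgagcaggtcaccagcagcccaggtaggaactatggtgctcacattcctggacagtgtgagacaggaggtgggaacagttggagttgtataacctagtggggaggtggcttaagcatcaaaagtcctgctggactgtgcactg
Cyp2b13 (chr7:26061245-26061494, plus strand): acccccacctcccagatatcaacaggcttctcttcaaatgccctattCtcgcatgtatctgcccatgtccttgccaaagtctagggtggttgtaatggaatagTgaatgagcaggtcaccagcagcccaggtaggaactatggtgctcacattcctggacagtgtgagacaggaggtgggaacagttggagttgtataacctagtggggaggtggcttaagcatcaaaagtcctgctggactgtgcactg
Cyp2b10 was 71.0% identical to either over the same window, with gap columns of the alignment counted as not identical. The remaining members Cyp2b19, a keratinocyte epoxygenase, and Cyp2b23 were below the array's median on all 8 arrays and differed by 0.07 and 0.05.

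Cyp2r1 and Cyp2u1 are conserved single-gene subfamilies. Cyp2r1, the microsomal enzyme that makes calcidiol from vitamin D, read 9.16, 8.57, 8.65 and 8.57 in knockout livers and 8.96, 9.39, 8.96 and 9.07 in controls. Knockout array 1 lay inside the control range and the other 3 below all controls. The mean was 8.74 ± 0.29 in knockout livers and 9.09 ± 0.20 in controls (SD, n = 4 each), a 0.781-fold ratio (log2 -0.36, SE 0.15; limma adjusted p = 0.394). With array weights it did pass (-0.52; limma adjusted p = 0.0447) and without knockout array 1 (-0.50; limma adjusted p = 0.0309). Cyp2u1, a long-chain fatty acid hydroxylase, read 10.97, 10.70, 10.57 and 10.75 on the knockout arrays and 10.69, 11.21, 11.10 and 11.17 on the control arrays (difference -0.30, SE 0.13; limma adjusted p = 0.413). In this gene both arrays numbered 1 lay toward the other group.

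Cyp2e1, Cyp2f2 and Cyp2a12 are typical hepatocyte P450 genes, and none of the 3 passed. Cyp2e1, which oxidises ethanol and acetone in pericentral hepatocytes, read 14.22, 14.18, 14.17 and 14.19 in knockout livers and 14.21, 14.21, 14.14 and 14.21 in controls, a difference of -0.003 with a 95% interval from -0.11 to 0.10. Its SD within groups of 0.0302 was the smallest of the 45 members. Cyp2f2, which activates naphthalene and in liver is periportal, read 14.07, 13.82, 13.83 and 13.86 against 13.91, 14.09, 14.06 and 14.00 in controls (difference -0.12, SE 0.07; limma adjusted p = 0.535). Values near the top of an array's range can be compressed, and that was not tested here. Cyp2a12, a steroid and bile acid hydroxylase, read 13.33, 12.79, 13.06 and 12.99 against 13.00, 13.09, 13.13 and 13.11 (difference -0.04, SE 0.10; limma adjusted p = 0.925).

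Cyp2j5, an arachidonic acid epoxygenase of liver and kidney, read 13.12, 12.88, 12.80 and 12.93 in knockout livers and 12.98, 13.11, 13.06 and 13.15 in controls (difference -0.14, SE 0.08; limma adjusted p = 0.531). The other Cyp2j members differed by between -0.20 (Cyp2j9) and 0.03 (Cyp2j11), and Cyp2j11, Cyp2j12 and Cyp2j13 were below the array's median throughout. Cyp2a22, singled out after its values were seen, read 8.76, 8.25, 8.27 and 7.33 against 7.98, 9.17, 8.71 and 9.06 in controls (difference -0.58, SE 0.29; limma adjusted p = 0.500).

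Members known from tissues other than liver were dim. Cyp2g1, of the olfactory mucosa, read 5.73, 5.82, 5.20 and 5.38 in knockout livers and 6.02, 5.68, 5.62 and 5.83 in controls (difference -0.26, SE 0.13; limma adjusted p = 0.519). Cyp2s1, known from epithelia, read 7.12, 7.09, 6.95 and 6.91 against 7.24, 7.20, 7.07 and 7.08 in controls (difference -0.13, SE 0.08; limma adjusted p = 0.612). Cyp2w1, known from tumours and the fetal gut, read 6.85, 6.87, 6.71 and 6.76 in knockout livers and 6.66, 6.83, 7.01 and 6.87 in controls, near the median of the array. Cyp2t4 read 5.52, 5.93, 5.78 and 5.47 against 5.72, 5.87, 5.90 and 5.64 in controls, a difference of -0.11. Cyp2ab1 read 6.09, 5.99, 6.08 and 5.96 in knockout livers and 5.99, 5.94, 5.96 and 5.96 in controls, a difference of 0.07.

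**Figure D4:**
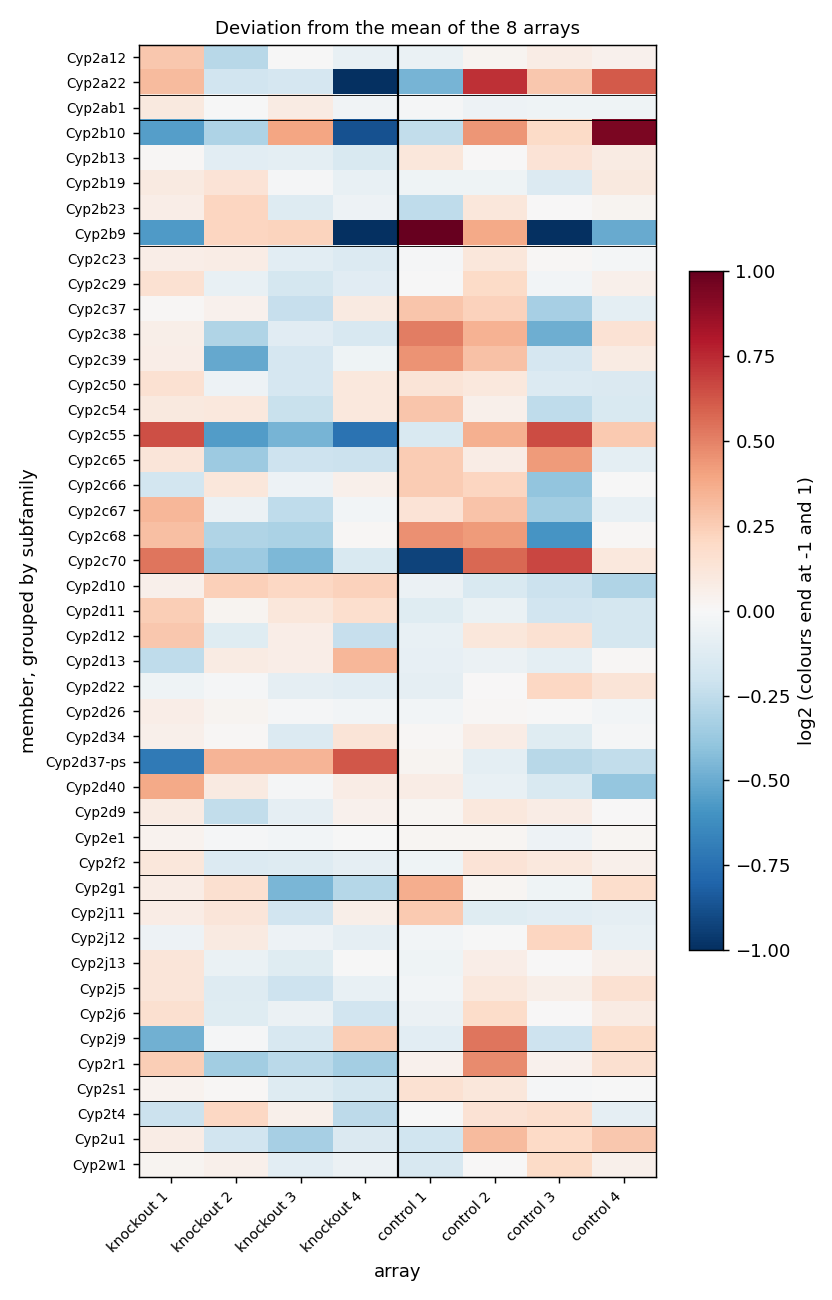
Deviation of each of the 45 members from its mean over the 8 arrays (log2, colours end at -1 and 1), knockout arrays left of the line and control arrays right of it, rows grouped by subfamily. The strongest colours are in Cyp2b9, Cyp2b10, Cyp2a22, Cyp2c55, Cyp2c70 and Cyp2d37-ps, and in several of these rows an array numbered 1 has the colour of the other group.

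Genes that serve or regulate these P450s were read from fixed lists, and 0 passed in any list below (limma, all 8 arrays). The 16 genes with the smallest p-values, 2 from each of 8 lists, were picked by p in these same data. Their counts in other fits are therefore raised by that choice and say nothing about the lists. With array weights 7 of the 16 passed (limma), where 3.55% of all genes did. Without knockout array 1 there were 9 (4.4% of all genes), and without both arrays numbered 1 there were 14 (7.47% of all genes). In every other alternative run there were 0. The 7 that passed with array weights were Cyb5r3, Dbp, Rsl1, Aldh1a1, Lect2, Pck1 and Hsd17b13. For the counts below, 3.84% of all genes were higher and 6.61% lower at an unadjusted limma p under 0.05, and 56.9% had a lower mean. Of 9 measured genes of electron transfer and heme supply, 4 had higher and 5 lower means, and at an unadjusted limma p under 0.05 there were 0 higher and 2 lower. Cyb5r3, cytochrome b5 reductase, read 13.15, 12.86, 12.77 and 12.82 in knockout livers and 13.04, 13.16, 13.29 and 13.27 in controls (difference -0.29, SE 0.09; limma adjusted p = 0.272). Cyb5a, cytochrome b5, differed by -0.20 (SE 0.09; limma adjusted p = 0.437) and Alas1, which starts heme synthesis, by -0.05. Of 19 measured regulators of family 2 genes, 13 had lower means, with 0 higher and 4 lower at an unadjusted limma p under 0.05 (6.61% of all genes were lower), and the median difference was -0.12 (-0.02 over all genes).

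Among these regulators the groups did not overlap for 2, Dbp and Tef, both lower in knockout livers; in that direction the groups did not overlap in 2.61% of all genes. With Hlf they form the PAR bZIP factors, which are known to drive drug-metabolism genes with the time of day. Dbp read 10.43, 10.50, 10.18 and 10.02 in knockout livers, against 10.96, 10.66, 10.95 and 10.66 in controls (difference -0.52, SE 0.12; limma adjusted p = 0.149). Tef, named after its values were seen, read 9.45, 9.55, 9.45 and 9.53 against 9.67, 9.61, 9.93 and 9.77 in controls (difference -0.25, SE 0.10; limma adjusted p = 0.369). Hlf differed by -0.26 (95% interval -0.54 to 0.03). Nfe2l2, which encodes the stress-response factor NRF2, differed by -0.29 (SE 0.10; limma adjusted p = 0.313).

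**Figure D5:**
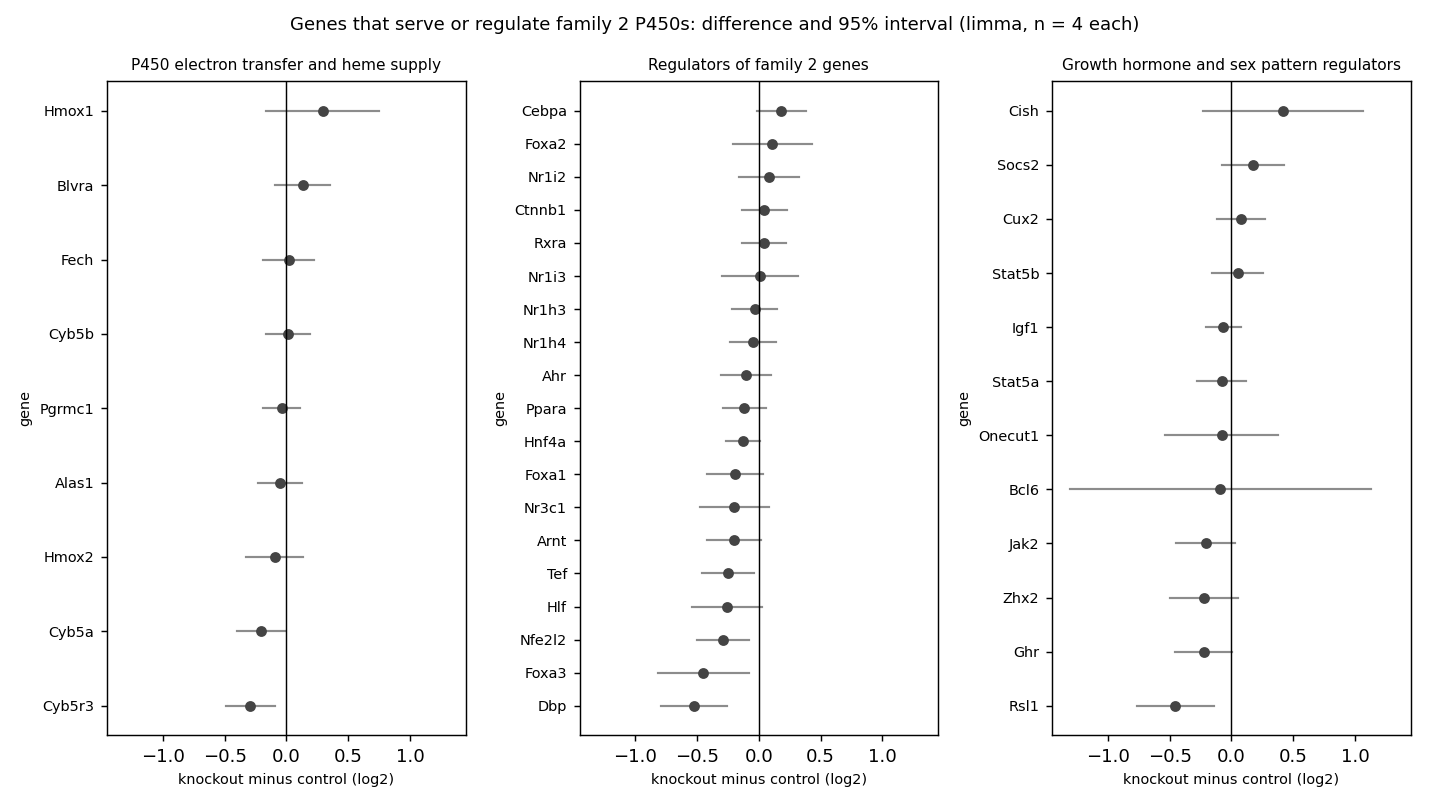
Difference, knockout minus control (log2), with its 95% interval from limma (n = 4 each), for genes of electron transfer and heme supply (left), regulators of family 2 genes (middle) and growth hormone and sex pattern regulators (right). Dbp, Foxa3, Nfe2l2 and Tef in the middle panel, Cyb5r3 and Cyb5a on the left and Rsl1 on the right have intervals below 0, whereas Nr1i3, Nr1i2 and Rxra straddle 0.

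Of 12 regulators of the growth hormone and sex pattern, 8 had lower means, with 0 higher and 1 lower at an unadjusted limma p under 0.05. That gene was Rsl1, a zinc finger repressor of male-pattern genes, which read 8.69, 7.95, 8.26 and 8.19 in knockout livers and 8.80, 8.88, 8.56 and 8.66 in controls (difference -0.45, SE 0.14; limma adjusted p = 0.279). The growth hormone receptor gene Ghr differed by -0.22 (SE 0.11; limma adjusted p = 0.475). Of 10 other male-pattern genes, 9 had lower means (median -0.25), with 0 higher and 3 lower at an unadjusted limma p under 0.05 (6.61% of all genes were lower), for example the fatty acid hydroxylase gene Cyp4a12a (-0.27, SE 0.10; limma adjusted p = 0.382) and the complement gene C6 (-0.36, SE 0.15; limma adjusted p = 0.397). In the 12 other female-pattern genes the median was 0.001, and the smallest p-values were those of the steroid lyase gene Cyp17a1 (0.46, SE 0.25; limma adjusted p = 0.523) and of Prom1 (-0.26; limma adjusted p = 0.504).

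Xenobiotic P450 genes outside family 2 had a median difference of 0.01, with 6 of 11 higher and, at an unadjusted limma p under 0.05, 0 higher and 1 lower, Cyp3a13 (-0.20, SE 0.09; limma adjusted p = 0.431), followed by Cyp4f14 (-0.28; limma adjusted p = 0.582). Of 11 pericentral genes, 8 had lower means (median -0.10; 0 higher and 2 lower at an unadjusted limma p under 0.05). Of 8 periportal genes, 7 had higher means (median 0.18; 2 higher and 1 lower). The pericentral Aldh1a1, a retinal dehydrogenase, differed by -0.34 (SE 0.11; limma adjusted p = 0.279) and Lect2 by -0.43 (limma adjusted p = 0.364). The periportal Hsd17b13, a lipid droplet protein, differed by 0.47 (SE 0.10; limma adjusted p = 0.143) and Pck1, which starts gluconeogenesis, by 0.55 (limma adjusted p = 0.204). Beside these, pericentral Cyp2e1 differed by -0.003 and periportal Cyp2f2 by -0.12. In whole liver, fewer cells of a type and less RNA per cell cannot be told apart. The mean of the 7 Kupffer cell markers on an array lay between 9.27 and 10.28 in knockout livers and between 9.03 and 9.77 in controls. Of the 7, 6 had higher means (median 0.18) and 0 passed (limma), with 1 higher and 0 lower at an unadjusted p under 0.05. All 7 hepatocyte markers had higher means (median 0.03). All 6 measured T, NK and B cell markers had lower means (median -0.13), and 5 of these averaged below the median probe set. The part of cell types in the differences was not tested.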

How the data were processed

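Liver RNA of 8 mice was measured on 1-colour Affymetrix Mouse Gene 1.0 ST arrays. The authors deposited 1 log2 value per probe set and array; per the submitters' processing notes, Partek, RMA and Affymetrix Expression Console were used (their roles are not stated), and the log base was read from the values. Since RMA makes the arrays alike in distribution, a shift of most genes at once cannot be read from these values. Of 35556 probe sets, 21789 with a single gene symbol were used; those with several symbols (1621) or none (12146) were not. Symbols were updated by Entrez identifier (21698 matched). A gene was represented by its brightest probe set. Of the 48 protein-coding family members in the RefSeq table, 43 were measured; 2 members are transcribed pseudogenes, 2 probe sets shared by several Cyp2 genes (Cyp2a4 with Cyp2a5, and 4 Cyp2c genes) were left out, and Cyp2j8 was not analysed here.

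Each probe set was fitted with limma 3.58.1 in R 4.3.3 (lmFit, eBayes with a mean-variance trend), knockout minus control, with Benjamini-Hochberg adjustment over 21789 probe sets and a threshold of 0.05. The exact two-sided permutation test was used for single values. The fit was tested on simulated data. Precision is limited by the number of arrays, and p-values measure the spread between these mice. The members, lists and named genes were chosen with earlier results of these data known. Values on every array are given for the brightest member of each subfamily, the 6 smallest p-values per direction and 12 measured genes of known biology; the 2 genes with the smallest p are taken from each other list, and any further list gene named was picked after its values were seen. Upstream sequences were aligned with biopython 1.88. Alternatives varied the spread estimate, weights, normalisation, brightness filter, multiple testing, probe set rule, replicate block and the arrays left out.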

Additional observations from a re-analysis of the deposited data

Results flagged for a closer look

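In 122 groups of 4 arrays tested (both groups of 61 genes), 5 held an array that lay far from the other 3; chance flags about 5% of groups. Cyp2d10 read 12.05 on knockout array 1, below the other knockout arrays at 12.21 or more and nearer to the controls. Cyp2r1 read 9.16 on knockout array 1, where the other knockout arrays lay at 8.65 or less. Cyp2c54 read 12.34 on knockout array 3, with the other knockout arrays between 12.66 and 12.67. Cyp2e1 read 14.14 on control 3, with the other controls at 14.21, a small gap within a narrow range. Cyp2j11 read 4.89 on control 1, with the other controls between 4.51 and 4.55, at a dim level.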

How the results depend on the processing

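With all 8 arrays at equal weights 0 genes and 0 members passed, also with the replicate number as a block (replicate block: 0 members and 0 of all genes); correlations of same-numbered arrays' deviations lay between -0.125 and 0.0738, and equal numbers were therefore not taken as pairs. With array weights 3 members and 707 genes passed (Cyp2d10 higher, Cyp2c55 and Cyp2r1 lower). Without single arrays between 0 and 4 members and between 0 and 877 genes passed: 4 members (with Cyp2d37-ps) and 877 genes without knockout array 1, 0 members and 59 genes without control 1, and 0 without any other array. Without both arrays numbered 1 (an alternative chosen after seeing the data) 9 members and 1489 genes passed; the further members were Cyp2a22, Cyp2c70, Cyp2f2, Cyp2j5 and Cyp2u1, all lower. The family median lay from -0.12 to -0.03 over all settings. Of the 26 named members, 22 kept their direction in every alternative run. The exceptions were Cyp2b9 (-1.62 to 0.10 without single arrays, positive without control 1; 0.13 without both arrays numbered 1), Cyp2a12 (-0.14 to 0.045, positive without knockout array 2), Cyp2w1 (-0.10 to 0.012, positive without control 3) and Cyp2e1 (-0.021 to 0.0044, positive without knockout array 3 or control 1, 2 or 4; 0.014 with arrays shifted to a common median). The cause was not tested. Dim probe sets limit the differences of the 15 members below the array median.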
